A study of Mus musculus with 6 samples.

Results

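The macrophage and antigen presentation genes are 35 mouse genes that mark macrophages and their relatives, or that build the machinery by which these cells show peptides to T cells. Each gene was included where an array probe set carried its symbol and no other, and all 35 had such a probe set, out of 18193 genes measured. Where a gene had several probe sets, the brightest over the 6 arrays was used. Affymetrix mouse expression arrays read the RNA of islets from male C57Bl6 mice aged 12 weeks, freed with collagenase, cleaned by density centrifugation and picked by hand. The controls were 3 Flox arrays, and 3 Tead1KO arrays came from mice whose Tead1 was knocked out in beta cells only. The labels name neither the Cre driver nor its presence in the controls, so an effect of a Cre transgene cannot be told apart from that of the Tead1 deletion. Whether the arrays of a group came from separate mice is not in the labels, so the p-values reflect no more than the variation among these 6 samples, and part of it may be technical.

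Islets hold a small population of resident macrophages beside the endocrine cells. They depend on Csf1, read by the receptor Csf1r, and sit along the islet's vessels and beta cells. They take up beta cell material and present its peptides on MHC class II, a pair of chains (alpha and beta) that assemble on the invariant chain Cd74. The chain is then cut away by the protease cathepsin S (Ctss). Tead1 is a DNA-binding factor of the Hippo pathway and was deleted here in beta cells, not in macrophages. In RNA of whole islets, fewer cells of a type and less RNA per cell cannot be told apart.

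The arrays were not of equal quality. Tead1KO replicate 3 stood apart, with a mean signal of 13.23 for the hybridization controls, bacterial transcripts added before hybridization, against 10.60 to 12.09 on the other arrays (log2). Its interquartile range over probe sets was 2.66, against 2.99 to 3.32, and its mean correlation with the other arrays was 0.969, against 0.984 to 0.986. Tead1 itself did not check the labels. Its brighter probe set read 7.22, 6.99 and 7.40 in Flox replicates 1 to 3 and 6.72, 7.49 and 5.95 in Tead1KO replicates 1 to 3 (limma adjusted p = 0.774). The position of these probes relative to the deletion is unknown here. Its other probe set read 6.14, 5.33 and 5.11 in Flox and 5.58, 5.41 and 4.98 in Tead1KO. Hormone transcripts marked the tissue as islet, with Ins2 at 15.69 in both groups and Gcg at 14.74 in both. Signals of the exocrine pancreas varied widely between arrays of the same group. The lipase Cel read 10.70, 13.28 and 13.88 in Flox and 10.90, 13.52 and 12.51 in Tead1KO.

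Of the members' roles, antigen presentation had the highest median correlation between its genes from array to array (Pearson r of 0.796). Closer single pairs lay outside it, such as Cd68 and Fcer1g (r of 0.992). Class II genes have a well-known control region just upstream of their start. The 250 bases before the RefSeq start are shown for both class II genes with an entry in the promoter table (build GRCm38.p6), with GATTGG or its reverse complement in capitals. GATTGG is the core of the Y box, an element of class II promoters that the factor NF-Y reads. The H2-Aa window is chr17:34287824-34288073 on the minus strand and the H2-Eb1 window is chr17:34305617-34305866 on the plus strand.
H2-Aa: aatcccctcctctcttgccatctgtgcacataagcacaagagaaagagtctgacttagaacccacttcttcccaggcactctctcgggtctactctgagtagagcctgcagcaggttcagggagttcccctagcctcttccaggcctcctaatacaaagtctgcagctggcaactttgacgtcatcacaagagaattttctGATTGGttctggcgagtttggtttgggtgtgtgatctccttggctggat
H2-Eb1: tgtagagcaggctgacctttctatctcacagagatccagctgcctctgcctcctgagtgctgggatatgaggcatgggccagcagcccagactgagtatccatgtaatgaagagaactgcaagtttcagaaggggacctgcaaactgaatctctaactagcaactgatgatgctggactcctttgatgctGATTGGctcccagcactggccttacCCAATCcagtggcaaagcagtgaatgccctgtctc
The letters begin 49 bases before the start of H2-Aa and 60 bases before that of H2-Eb1, on the gene's strand. H2-Eb1 holds a second match on the other strand, 35 bases before the start. GATTGG on either strand is common, at 16.1% of 32851 promoter windows (250 bases before and 50 after the start) and 5 of 29 windows of members (17.2%, for 24 members with an entry). AGGAAGT, letters found in sites of the myeloid factor PU.1 (encoded by Spi1), was in 5 of the 29 windows (17.2%), those of Ctss, Lyz2, Mrc1 and Ptprc, against 9.35% of all windows. GGAATG, letters bound by TEAD factors, was in the window of Apoe alone (3.45% of member windows, against 14.7% of all). The 3 motifs were searched on both strands, and none contains another. A match is a description of letters and not a bound site.

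None of the 35 members rose or fell in Tead1KO islets. In the limma test with Benjamini-Hochberg adjustment over 18193 genes, 94 genes (0.517%) had an adjusted p under 0.05, and the members' adjusted p lay between 0.662 and 0.993. Without adjustment, 1 member had a p under 0.05, as had 7.41% of all genes. The median log2 difference (Tead1KO minus Flox) was 0.07 over the members and -0.01 over all genes, and 23 members lay above 0 and 12 below. The differences ran from -0.33 for Apoe to 0.46 for Fcgr3. The 95% intervals of 33 members lay within 2-fold in either direction. Those of Csf1r and H2-Ab1 did not, and reached 0.466-fold and 0.493-fold on the lower side. The arrays of both groups were separate for 3 of the 35 members, Adgre1, Fcgr3 and Fcgr2b, all higher in Tead1KO. Of all genes, 13.1% were separate in either direction and 5.8% were separate and higher.

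**Figure D1:**
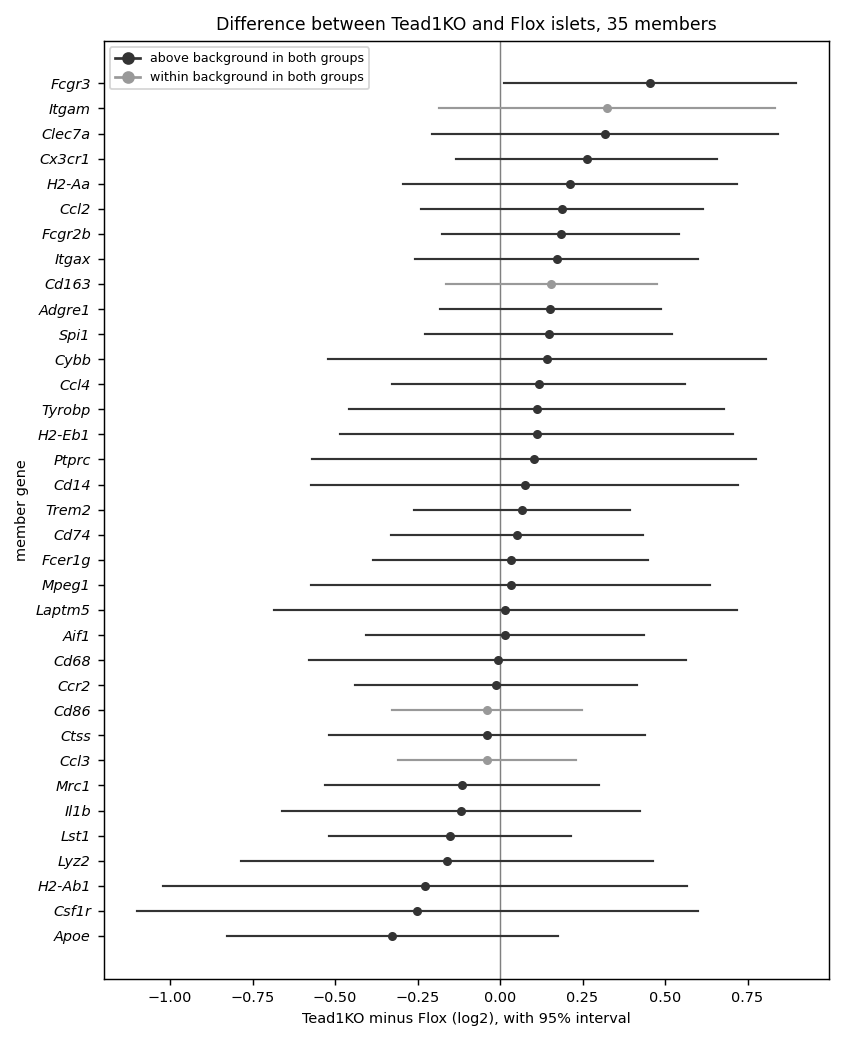
Log2 difference of Tead1KO minus Flox (x axis) for the 35 members (y axis), with points for the limma estimate and bars for its 95% interval, 3 arrays a group; grey marks genes within background in both groups. The points run from -0.33 (Apoe) to 0.46 (Fcgr3), and only the interval of Fcgr3, from 0.01 to 0.90, leaves out 0.

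Of the members, 31 read above background in both groups. Background was taken as the range of bacterial control probe sets that were not spiked into the samples, 2.87 to 4.70 on the log2 scale. The other 4, Cd163, Itgam, Cd86 and Ccl3, had both group means within that range, and their differences say nothing of a change in expression. The haemoglobin scavenger receptor Cd163 read 3.69 to 3.82 in Flox and 3.76 to 4.16 in Tead1KO. The integrin chain Itgam read 3.37 to 3.49 in Flox, and 3.53, 3.45 and 4.31 in Tead1KO replicates 1 to 3. With a limit 1 log2 unit higher, 24 members remained above it. The defining macrophage markers Csf1r, Adgre1, Cd68, Lyz2, Mpeg1 and Aif1 read above background on all 6 arrays, as were C1qa, C1qb and C1qc.

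**Figure D2:**
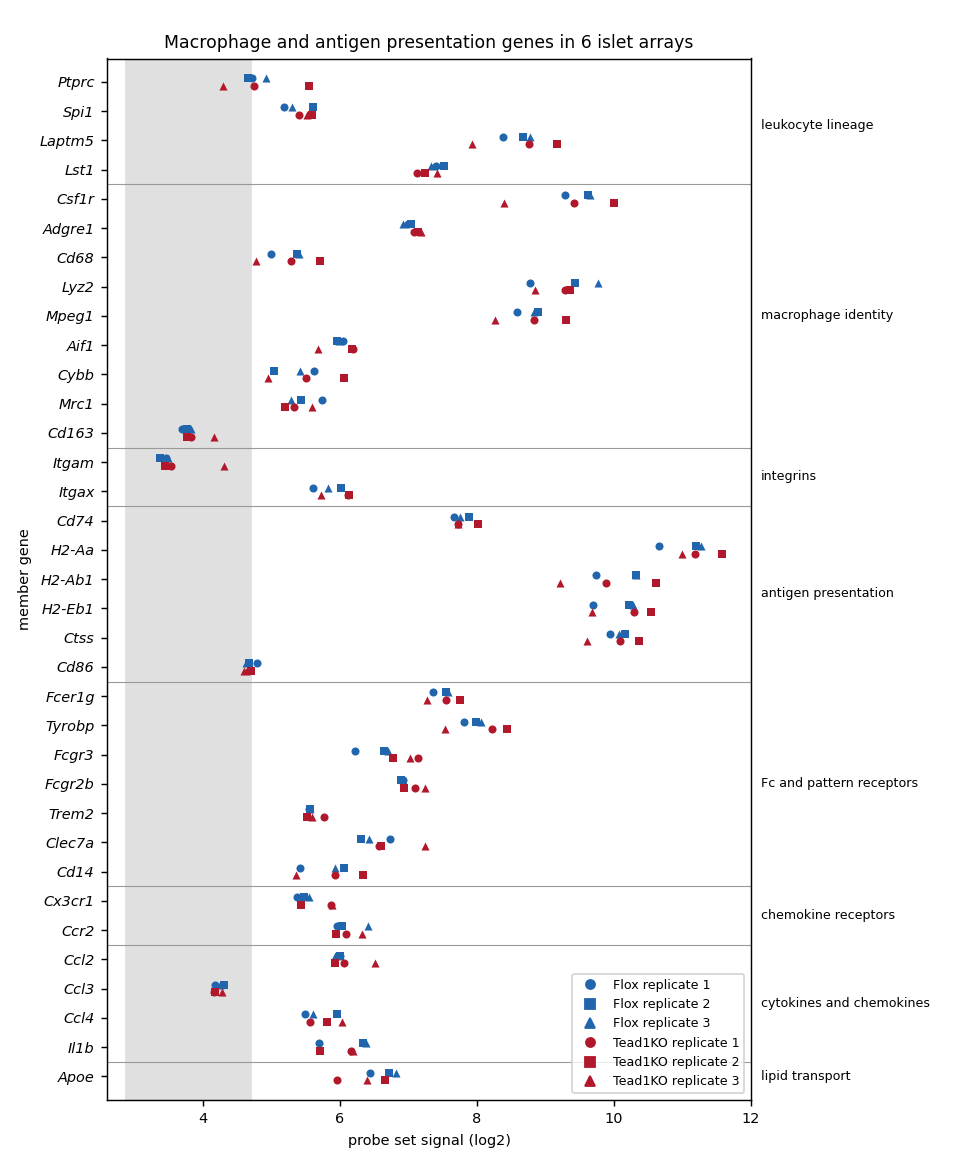
Probe set signal (log2, x axis) of each of the 35 members (y axis, by role), 1 point per array, blue for Flox and red for Tead1KO with the symbol by replicate; the grey band is the background of 2.87 to 4.70. The groups overlap for all members but Adgre1, Fcgr3 and Fcgr2b, and the Tead1KO points of Csf1r, Laptm5 and H2-Ab1 spread widely, with replicate 3 lowest.

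Among genes of the leukocyte lineage, Ptprc encodes CD45, the phosphatase on the surface of all leukocytes. It read 4.72, 4.66 and 4.91 in Flox replicates 1 to 3 and 4.75, 5.55 and 4.30 in Tead1KO replicates 1 to 3, and was highest in Tead1KO replicate 2. The difference was 0.10 (SE 0.29, adjusted p = 0.929). Ptprc lay near the upper limit of background (4.70), and Flox replicate 2 and Tead1KO replicate 3 were below that limit. Its second probe set had both group means within background (4.43 in Flox, 4.53 in Tead1KO). Laptm5, a lysosomal membrane protein of blood cells, read 8.38, 8.67 and 8.77 in Flox and 8.76, 9.17 and 7.93 in Tead1KO. Its Tead1KO arrays held both the highest and the lowest value, around a difference of 0.02 (SE 0.30). Spi1, which encodes the myeloid transcription factor PU.1, spanned 5.18 to 5.60 over all 6 arrays and Lst1 7.12 to 7.51, with differences of 0.15 and -0.15.

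Among the 9 macrophage identity genes, the groups overlapped for all but Adgre1. Csf1r, the receptor for Csf1, had the widest range of the members. It read 9.29, 9.62 and 9.65 in Flox (mean 9.52 ± 0.20, SD, n = 3) and 9.41, 10.001 and 8.39 in Tead1KO (9.27 ± 0.81, n = 3). The difference of -0.25 (SE 0.37, adjusted p = 0.861) was smaller than the spread within the Tead1KO group. A second probe set of Csf1r (7.69, 8.14 and 8.21 in Flox, 8.23, 8.33 and 7.26 in Tead1KO) differed by -0.07 and also had Tead1KO replicate 3 lowest. The dimmest of the 3 (5.39, 5.78 and 5.65 in Flox, 5.76, 5.61 and 6.28 in Tead1KO) differed by 0.27 and had Tead1KO replicate 3 highest instead of lowest. Adgre1 encodes the antigen of the classical surface marker of mouse macrophages and was the steadiest of the macrophage identity genes. It read 7.0, 7.03 and 6.92 in Flox and 7.08, 7.14 and 7.19 in Tead1KO. The groups did not overlap, but the difference of 0.15 (SE 0.14) did not pass (adjusted p = 0.803).

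Cd68, a lysosomal glycoprotein, read 5.0, 5.37 and 5.41 in Flox and 5.28, 5.71 and 4.77 in Tead1KO, with a difference of -0.01 (SE 0.25, adjusted p = 0.993). Lyz2, the lysozyme of myeloid cells, read 8.78, 9.44 and 9.76 in Flox and 9.28, 9.36 and 8.85 in Tead1KO. Here the Flox arrays varied more than the Tead1KO arrays (SD 0.50 against 0.27), around a difference of -0.16. Mpeg1, a pore-forming protein of phagosomes, read 8.58 to 8.89 in Flox and 8.26 to 9.30 in Tead1KO. Mrc1, the mannose receptor of tissue macrophages, read 5.74, 5.44 and 5.28 in Flox and 5.33, 5.19 and 5.59 in Tead1KO, a difference of -0.12 (SE 0.18). Aif1 and Cybb, the latter a subunit of the phagocyte oxidase, differed by 0.02 and 0.14. The integrin chain Itgax, found on dendritic cells and on islet macrophages, differed by 0.17 (adjusted p = 0.820).

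The MHC class II genes gave bright signals on every array. H2-Aa, the alpha chain of I-A, read 10.65, 11.20 and 11.28 in Flox and 11.19, 11.58 and 10.99 in Tead1KO (difference 0.21, SE 0.22, adjusted p = 0.815). H2-Ab1, its beta chain partner, read 9.74, 10.32 and 10.32 in Flox and 9.88, 10.62 and 9.21 in Tead1KO (difference -0.23, SE 0.34, adjusted p = 0.866). Both chains were high in Tead1KO replicate 2. The lowest array was Flox replicate 1 for H2-Aa and Tead1KO replicate 3 for H2-Ab1. H2-Eb1, the beta chain of I-E, read 9.69, 10.21 and 10.28 in Flox and 10.29, 10.55 and 9.69 in Tead1KO, a difference of 0.11 (SE 0.26). The I-E alpha chain is not made in C57BL/6 mice, so this beta chain has no partner at the surface.

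Cd74, the invariant chain, was steady at 7.67, 7.89 and 7.76 in Flox and 7.72, 8.02 and 7.72 in Tead1KO (difference 0.05, SE 0.17). Ctss, the protease that trims it, read 9.95, 10.17 and 10.08 in Flox and 10.10, 10.37 and 9.61 in Tead1KO (difference -0.04, SE 0.21, adjusted p = 0.964). Cd86, a costimulatory ligand for T cells, lay at the edge of background throughout, between 4.60 and 4.79. Other probe sets of the same class II genes did not all point one way. Further probe sets of H2-Aa differed by -0.06 and -0.24, and those of H2-Ab1 by 0.29 and 0.21 where the brightest gave -0.23. Of the 24 further probe sets of members, 13 read above background, with differences of -0.24 to 0.29. With all 59 member probe sets tested separately, 0 passed over all probe sets in limma, and 1, that of Fcgr3, had an unadjusted p under 0.05.

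The Fc and pattern recognition group, 5 receptors and 2 adaptor chains, had differences of 0.03 to 0.46 by their brightest probe sets, all above 0, and none passed. With median centring Fcer1g lay at -0.03, and with quantile normalization Cd14 lay at -0.01. Fcgr3, an activating low-affinity receptor for IgG, had the largest. It read 6.23, 6.65 and 6.70 in Flox (6.52 ± 0.26, n = 3) and 7.14, 6.77 and 7.02 in Tead1KO (6.98 ± 0.19, n = 3). Every Tead1KO array lay above every Flox array, and the difference of 0.46 (SE 0.19) had an adjusted p of 0.662. Its inhibitory counterpart Fcgr2b read 6.92, 6.89 and 6.92 in Flox and 7.10, 6.93 and 7.25 in Tead1KO (difference 0.18, SE 0.16, adjusted p = 0.786). The other 4 probe sets of Fcgr2b differed by -0.11 to 0.10.

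Fcer1g and Tyrobp are the adaptor chains that carry signals of activating receptors into the cell. Fcer1g read 7.35, 7.54 and 7.57 in Flox and 7.54, 7.75 and 7.27 in Tead1KO, a difference of 0.03. Tyrobp read 7.81, 7.99 and 8.06 in Flox and 8.22, 8.44 and 7.53 in Tead1KO, a difference of 0.11 (SE 0.25, adjusted p = 0.908). Both were highest in Tead1KO replicate 2 and lowest in Tead1KO replicate 3. Cd14, the coreceptor for bacterial lipopolysaccharide, did the same around a difference of 0.07, from 5.36 to 6.34. Clec7a, the beta-glucan receptor dectin-1, had its highest value in Tead1KO replicate 3 and its lowest in Flox replicate 2. It read 6.73, 6.31 and 6.42 in Flox and 6.56, 6.6 and 7.24 in Tead1KO (difference 0.32, adjusted p = 0.772). Trem2, a lipid-sensing receptor that signals through Tyrobp, stayed between 5.52 and 5.77 on all arrays by its brightest probe set (difference 0.07). Its other probe set was about as bright, read 5.42 to 5.91 and differed by -0.06.

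None of the 2 chemokine receptors and 4 cytokines passed, and the groups overlapped for each. Cx3cr1, the fractalkine receptor of resident macrophages, read 5.38, 5.47 and 5.54 in Flox and 5.86, 5.43 and 5.89 in Tead1KO, so 2 of the 3 Tead1KO arrays lay above the Flox arrays (difference 0.26, SE 0.17, adjusted p = 0.772). Its dimmer probe set lay within background, with a mean of 3.82 in both groups. Ccr2, the receptor by which monocytes leave the bone marrow, read 5.96, 6.04 and 6.41 in Flox and 6.09, 5.95 and 6.33 in Tead1KO, a difference of -0.01. The other probe sets of Ccr2 all lay within background, with group means of 3.31 to 4.61. Ccl2, the ligand of Ccr2, read 6.01, 6.0 and 5.92 in Flox and 6.06, 5.93 and 6.51 in Tead1KO, and only Tead1KO replicate 3 was outside the Flox range by more than 0.1. Ccl4 ranged from 5.49 to 6.04, and its neighbour Ccl3 stayed within background at 4.16 to 4.31. The inflammatory cytokine Il1b read 5.70, 6.34 and 6.38 in Flox and 6.16, 5.71 and 6.19 in Tead1KO (difference -0.12, SE 0.23, adjusted p = 0.897). Apoe, a lipoprotein made by macrophages and by other cells, had the largest negative difference. It read 6.44, 6.72 and 6.82 in Flox and 5.95, 6.66 and 6.39 in Tead1KO (difference -0.33, SE 0.22, adjusted p = 0.772), with overlapping groups.

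Over all 35 members, the spread within groups was close to that of other genes, but it was wider for those above background. The median SD within groups was 0.241 over the 35 members, against 0.225 over all genes. The median range over 6 arrays was 0.68 against 0.63. Above background, the 31 members had a median SD of 0.280, against 0.234 for genes above background, and a median range of 0.75 against 0.66. By role, the median SD ran from 0.204 for the chemokine receptors to 0.368 for macrophage identity, with 0.300 for antigen presentation. The SD was larger among the Tead1KO arrays for 25 members (71.4%), as it was for 76.2% of all genes. Of the 31 members above background, 15 were highest in Tead1KO replicate 2 (48.4%, against 23.9% of genes above background). The lowest array was Tead1KO replicate 3 for 13 (41.9%, against 45.4%) and Flox replicate 1 for 9 (29.0%, against 12.9%). The shifts were widest for the 9 members with a mean signal over 8. Their median in Tead1KO replicate 3 was 0.57 below the mean of the other 5 arrays (-0.57, against -0.35 for 5961 genes of that brightness). In Tead1KO replicate 2 it was 0.52 above (against 0.14) and in Flox replicate 1 it was -0.28 (against 0.03). The 10 members between background and 6 had medians of 0.24 in Tead1KO replicate 2 (against -0.10), -0.28 in Flox replicate 1 (against -0.05) and -0.11 in Tead1KO replicate 3 (against 0.13). The 12 members with a signal between 6 and 8 did not share it, with 0.14 in Tead1KO replicate 3 (against -0.19 for genes of that brightness) and -0.01 in Tead1KO replicate 2 (against 0.09). The part of array quality in these shifts was not tested. The mean of 8 acinar genes, relative to their mean over 6 arrays, was -1.42 in Flox replicate 1 and -1.23 in Tead1KO replicate 1. The 5 antigen presentation genes above background stood at -0.28 and 0.01 on the same arrays, and the part of acinar RNA was not tested.

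**Figure D3:**
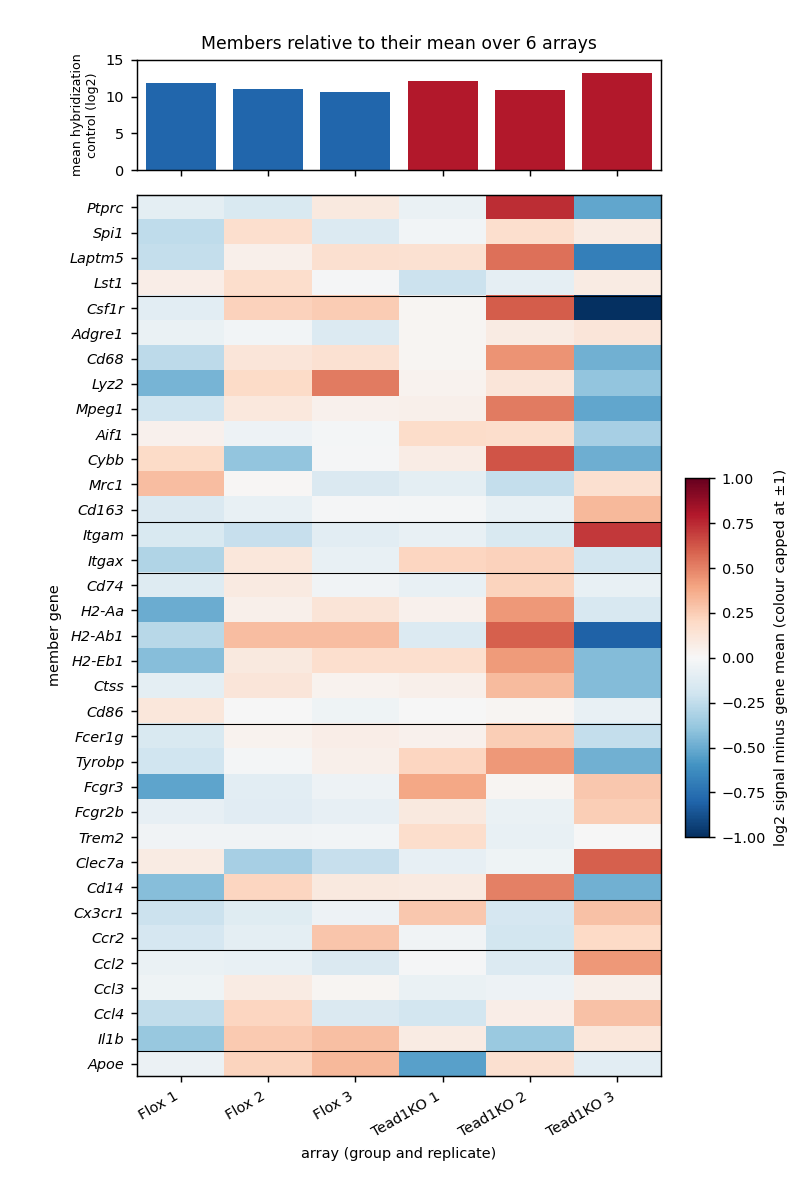
Log2 signal of each member minus its mean over the 6 arrays (colour, capped at 1 in either direction; y axis the members by role, x axis the arrays), below bars with the mean hybridization control signal of each array (log2, blue Flox, red Tead1KO). Most macrophage identity and class II genes are high in Tead1KO replicate 2 and low in Tead1KO replicate 3, the array with the highest control signal (13.23), whereas Itgam, Clec7a and Ccl2 are highest there.

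Over the 6 arrays, the members did not form 1 correlated block. The median Pearson r over the 465 pairs of the 31 members above background was 0.137, against 0.0691 over all pairs of the 14291 genes above background, and 208 pairs were negative. A share of 16.99% of member pairs had an r over 0.8, against 9.61% of all pairs. Without Tead1KO replicate 3 the medians were 0.269 and 0.0122, and without Flox replicate 1 they were 0.0284 and 0.0895. All values of r rest on 6 arrays that share their normalization, and they are given as descriptions. The highest median r among the roles was that of the 5 antigen presentation genes, which were bright (mean signals of 7.80 to 11.15). Each was taken by its brightest probe set, and the part of signal level was not tested. All 3 pairs of cytokine and chemokine genes were positive, with a median r of 0.297. The 10 pairs of antigen presentation genes were all positive too, with a median r of 0.796 (0.885 on deviations from the group means). It was 0.873 without Tead1KO replicate 3, 0.629 without Tead1KO replicate 2 and 0.877 without Flox replicate 1. The 8 macrophage identity genes had a median r of 0.232, and 13 of their 28 pairs were negative. It was 0.430 without Tead1KO replicate 3, 0.273 without Tead1KO replicate 2, 0.438 without Flox replicate 1 and 0.437 on deviations from the group means.

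A set of 13 members had a median r over 0.5 with the other members. It was led by Laptm5 (0.697), Fcer1g (0.693), Cd68 (0.674), Mpeg1 (0.674), Ctss (0.656), Tyrobp (0.637) and Csf1r (0.613), and held the 3 class II chains and Cd14. A further 10 members had a median r below 0. Mrc1 (-0.582), Fcgr2b (-0.415), Ccl2 (-0.389) and Clec7a (-0.386) were the lowest, followed by Lst1 (-0.345) and Cx3cr1 (-0.259). Of these 6, Fcgr2b, Ccl2, Clec7a and Cx3cr1 had their highest value in Tead1KO replicate 3, Mrc1 in Flox replicate 1 and Lst1 in Flox replicate 2. Of 8 pairs taken as partners, Csf1r and H2-Ab1 went together most closely (r = 0.967, exact permutation p = 0.00139, adjusted 0.0111; Spearman's rho = 1.0, exact permutation p = 0.00278, adjusted 0.0222). Their r was 0.992 without the 2 arrays farthest from the median, Tead1KO replicates 2 and 3, and 0.965 on deviations from the group means. Tyrobp and Fcer1g followed (r = 0.958, exact permutation p = 0.00694, adjusted 0.0278; rho = 0.943, p = 0.0167, adjusted 0.0444), with 0.799 without the same 2 arrays. The permutation p-values treat the 6 arrays as exchangeable, although the arrays form 2 groups and share shifts in signal. They do not measure how far a pair exceeds other genes, of whose pairs 9.61% had an r over 0.8. Each pair used only the brightest probe set of a gene, and other probe sets of Csf1r and H2-Ab1 did not all follow these. A further H2-Ab1 probe set read 7.41, 7.32 and 7.26 in Flox and 7.58, 7.52 and 7.52 in Tead1KO. The dimmest Csf1r probe set was highest in Tead1KO replicate 3 (6.28), where the brightest was lowest. The class II partners H2-Ab1 and H2-Aa had an r of 0.728 (exact permutation p = 0.107, adjusted 0.151) and a rho of 0.943 (exact permutation p = 0.0167, adjusted 0.0444). Csf1r and Adgre1, both used to mark macrophages, had an r of -0.412 (exact permutation p = 0.440) and a rho of -0.257 (exact permutation p = 0.658). The other 4 pairs, Cd74 with H2-Ab1, Ccl3 with Ccl4, Apoe with Trem2 and Fcgr3 with Fcgr2b, had adjusted exact permutation p-values of 0.148 to 0.151 for r and 0.0533 to 0.406 for rho.

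**Figure D4:**
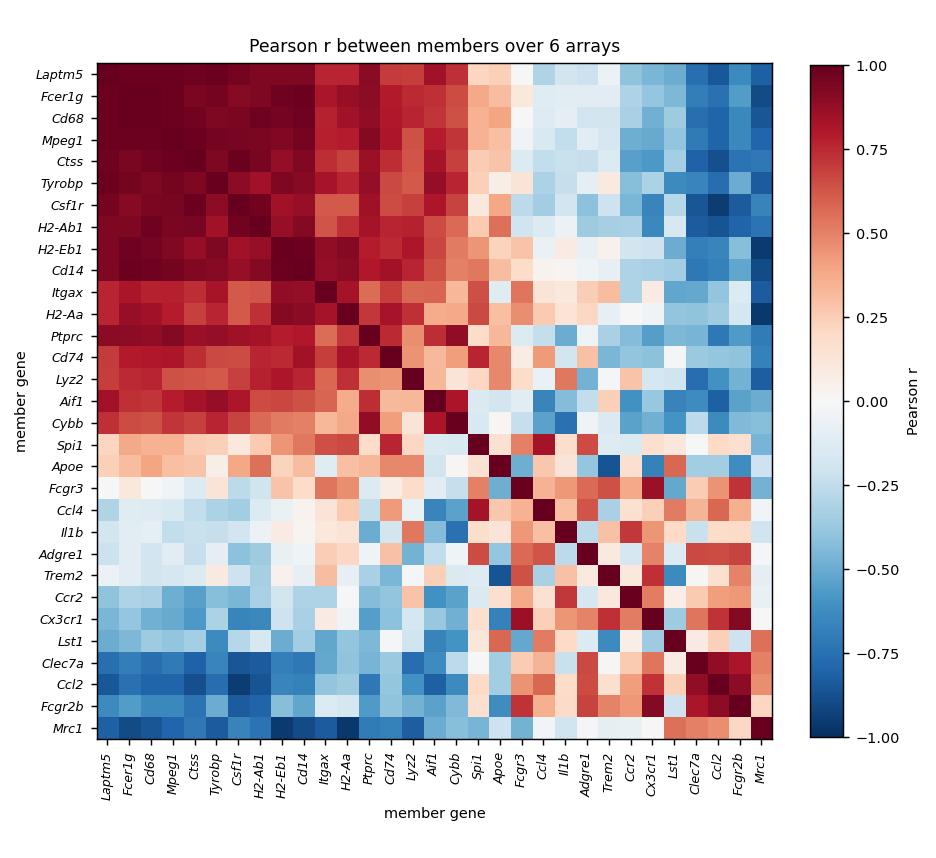
Pearson r (colour) over 6 arrays for each pair of the 31 members above background (both axes, ordered by a gene's median r with the others). The red block at the upper left holds Laptm5, Fcer1g, Cd68, Mpeg1, Ctss, Tyrobp, Csf1r and the class II chains, and Mrc1 (median -0.582), Fcgr2b, Ccl2 and Clec7a at the other end are negative against it.

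The rest of the antigen presentation machinery gave no call. Of 15 measured genes of the class II pathway outside the members, 0 rose or fell and 0 had an unadjusted p under 0.05 (limma), with a median difference of 0.03. Ciita, the coactivator that switches class II genes on, read within background (4.31 ± 0.27 in Flox, 4.63 ± 0.13 in Tead1KO, n = 3 each, adjusted p = 0.731). Ifi30, a lysosomal thiol reductase, differed by -0.41 (adjusted p = 0.767). Of 15 genes of the class I pathway, which shows peptides from inside the cell, 0 passed and 0 had an unadjusted p under 0.05. Below 0 lay 13 of them (median -0.10), against 9291 of 18193 genes. Of the 14 above background, 1 lay above 0, against 6048 of 14291 genes above background. These 14 stood at a mean of -0.41 in Tead1KO replicate 3, relative to their mean over 6 arrays, and the part of signal level was not tested. The peptide-trimming enzyme Erap1 differed by -0.47 (adjusted p = 0.668) and the class I heavy chain H2-K1 by -0.44 (adjusted p = 0.772), both lowest in Tead1KO replicate 3. B2m, the light chain that pairs with class I heavy chains, differed by -0.08.

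Of 37 further macrophage genes, 1 fell and 0 rose, at a background of 0.181% of all genes that fell. Their median difference was 0.17, and 32 lay above 0 and 5 below, against 8902 above and 9291 below among all genes. Of the 31 above background, 26 lay above 0, against 6048 of 14291 genes above background. Many were dim, and 15 read more than 1 log2 unit above background. All genes between background and 6 had a median shift of 0.13 in Tead1KO replicate 3, and the part of signal level in these counts was not tested. The gene that fell was Lyve1, a hyaluronan receptor of perivascular macrophages and of lymphatic endothelium. It read 6.26, 6.87 and 6.71 in Flox and 4.71, 5.42 and 5.16 in Tead1KO, with no overlap (difference -1.52, SE 0.24, adjusted p = 0.0468). Lyve1 did not pass without any one of Flox replicates 1 to 3 or Tead1KO replicate 1 (adjusted p = 0.106, 0.250, 0.277 and 0.221), with median centring (0.0589), with its probe sets averaged (0.115) or with every probe set tested separately (0.0645). Its dimmer probe set differed by -0.32. The chains of complement C1q, which macrophages make together, disagreed. C1qa read 9.75, 10.55 and 10.50 in Flox and 11.52, 11.99 and 10.51 in Tead1KO (difference 1.08, SE 0.38, adjusted p = 0.518), whereas C1qb and C1qc differed by 0.08 and 0.03. C1qa passed with the hybridization controls as a covariate (difference 1.65), and C1qb and C1qc did not. The activating IgG receptor Fcgr4 read 4.60 to 4.65 in Flox, within background, and 5.08, 5.34 and 4.79 in Tead1KO (adjusted p = 0.571).

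Signals that recruit or activate macrophages did not pass. Of 18 growth factors and attractants, 0 passed and 2 had an unadjusted p under 0.05. Cx3cl1, the ligand of Cx3cr1, read 7.69, 7.67 and 8.05 in Tead1KO against 7.0, 6.88 and 7.09 in Flox (difference 0.81, SE 0.17, adjusted p = 0.142). All 3 Tead1KO arrays lay above the Flox arrays, and the second probe set above background differed by 0.17. Ccl12 was within background in both groups. Of 17 inflammatory cytokines and NF-kB response genes, 0 passed and 1, Il18, had an unadjusted p under 0.05 (difference -0.42, adjusted p = 0.571). Of 18 interferon response genes, 0 passed and 1, Oas1a, had an unadjusted p under 0.05 (difference -0.46, adjusted p = 0.540).

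None of the 10 T cell, 7 B cell, 7 NK cell, 7 neutrophil, 8 dendritic cell and 6 mast cell genes passed in limma, and those with an unadjusted p under 0.05 were Cd79a and Gzmb. Cd79a, a chain of the B cell receptor, read 5.62, 5.62 and 5.89 in Flox and 5.0, 4.81 and 4.78 in Tead1KO (difference -0.85, SE 0.15, adjusted p = 0.0725). It passed with probe sets averaged over each gene (adjusted p = 0.0424), and under the other alternatives its adjusted p was 0.0518 to 0.469. The granule protease Gzmb read 4.41 to 4.51 in Flox, within background, and 5.51, 4.54 and 5.50 in Tead1KO (adjusted p = 0.522), and passed without Tead1KO replicate 2 (adjusted p = 0.0189). With a limit 1 log2 unit above background, 0 B cell and 0 NK cell genes, 1 neutrophil, 1 dendritic cell, 1 mast cell and 4 T cell genes remained. The summed log2 level of the 8 T cell genes above background was 44.2 to 44.6 in Flox and 44.0 to 44.8 in Tead1KO. The corresponding sum of the 31 members above background was 216.0 to 223.0 in Flox and 216.4 to 227.6 in Tead1KO. The 10 endothelial genes had a median difference of 0.04 and 0 calls. The 8 fibroblast genes had a median of 0.32 with 0 calls and 3 unadjusted p under 0.05, all higher. The 7 pericyte and smooth muscle genes had -0.28 with 0 calls and 3, all lower. None of the 6 beta cell genes passed, and 3 had an unadjusted p under 0.05, all lower (median -0.47). The 8 acinar genes had a median of -0.16, the 4 duct genes -0.18 and the 5 alpha, delta and PP cell genes 0.00, each with 0 calls and 0 unadjusted p under 0.05 (limma). The part of these cell types in the members' values was not tested.

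**Figure D5:**
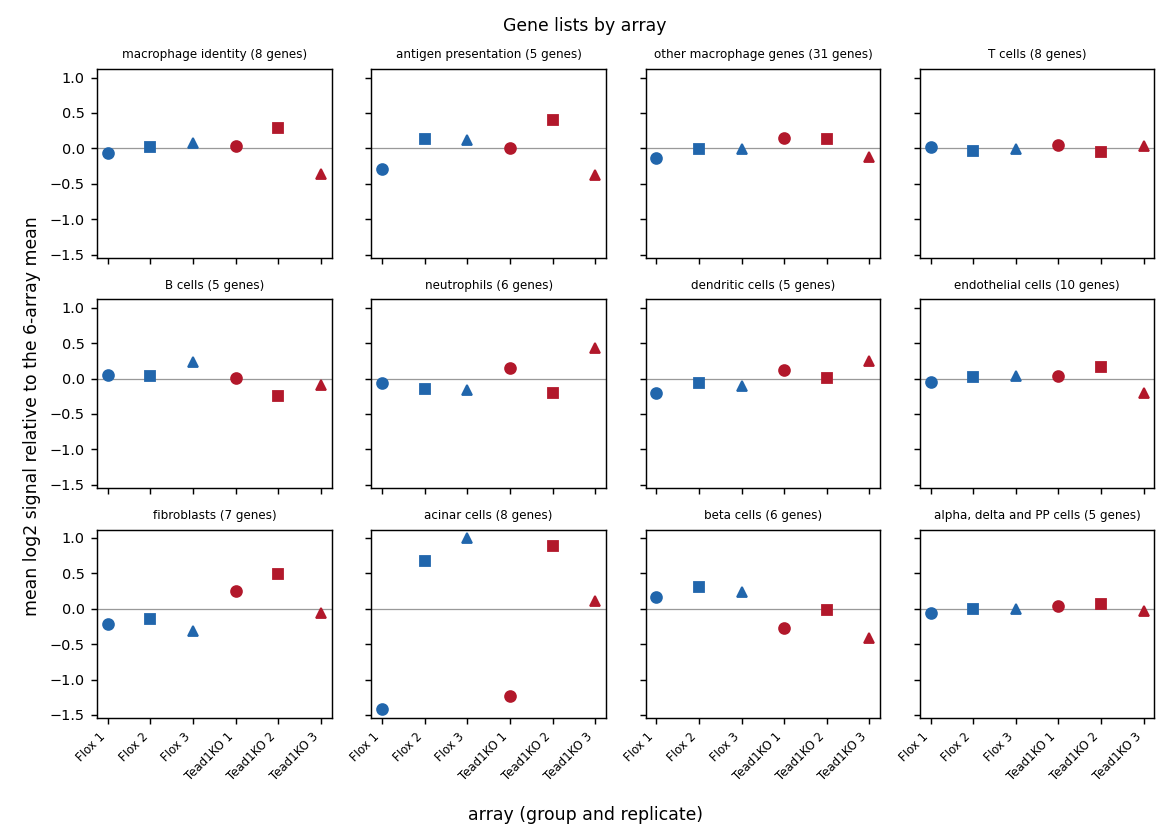
Mean log2 signal of 12 gene lists relative to each gene's mean over 6 arrays (y axis) on each array (x axis), for genes above background, blue for Flox and red for Tead1KO with the symbol by replicate. The antigen presentation genes run from -0.38 in Tead1KO replicate 3 to 0.40 in Tead1KO replicate 2, and the acinar genes from -1.42 in Flox replicate 1 to 0.99 in Flox replicate 3.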

How the data were processed

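Islet RNA of 3 Flox and 3 Tead1KO samples was hybridized to 1 array each. Per the submitters' processing notes, the authors used Affymetrix Expression Console, and what they deposited is 1 log2 signal per probe set and array, a scale inferred from its range of 2.75 to 15.7. The software's version and the algorithm that normalized the arrays are unknown here. Of 45101 probe sets, 64 controls were left out and 34945 had a single gene symbol in GEO's platform annotation, which gave 18193 genes by the brightest probe set. No filter on dim signals and no pseudocount was used. Members absent from the promoter table are named only.

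Differences (Tead1KO minus Flox) came from limma 3.58.1 under R 4.3.3 (lmFit and eBayes with trend, no covariate), with Benjamini-Hochberg adjustment over all genes and a threshold of 0.05, after the procedure was tested on simulated data. SE is moderated, and 95% intervals are not adjusted. Only 3 arrays a group limit the precision. Correlations used exact permutation over 720 pairings, two-sided, adjusted over 8 pairs. The members and the lists of other genes were chosen with earlier results of these data known, and are described by counts and medians. Values were given in full for members with an unadjusted p under 0.05 and for a fixed core of members, and for list genes that passed or were among the 3 with the smallest p of their list; B2m, C1qb and C1qc were named after their values were seen. Listed genes that had no probe set with 1 symbol were not analysed here.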

Additional observations from a re-analysis of the deposited data

How the results depend on the processing

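The number of members that rose or fell was 0 in limma under all 16 alternatives: quantile normalization, median centring, no dim probe sets, no variance trend, a robust prior, averaged probe sets, no _x_at or _s_at probe sets, every probe set separately, the replicate number as a block, the hybridization controls as a covariate, and each of the 6 arrays left out. Whether the replicate number pairs the arrays is not in the labels, and 3 arrays a group cannot settle it. Deviations of same-numbered arrays had correlations of 0.0556, 0.303 and -0.175. Hybridization controls in Flox and Tead1KO were alike for replicate 1 (11.89 and 12.09) and replicate 2 (10.96 and 10.87). They differed for replicate 3 (10.60 and 13.23). With the replicate block 0 members and 97 genes passed. With the hybridization controls as a covariate 8 of the 35 members had an unadjusted p under 0.05 in limma, against 8.45% of all genes. They were Cd14, Cd68, H2-Aa, H2-Eb1, Laptm5, Mpeg1, Ptprc and Tyrobp, all above 0 (smallest adjusted p = 0.156). Differences that did not pass changed sign for up to 5 members under the alternatives that kept all arrays and for 4 to 12 with an array left out. The members' median lay between 0.0046 and 0.16 with all arrays and between -0.05 and 0.13 with an array left out. Over all genes the count of 94 was 152 with quantile normalization, 58 with median centring, 242 with the hybridization controls as a covariate, and 12 to 303 with an array left out. The median r between members moved from 0.137 to 0.249 with median centring and 0.0546 without _x_at and _s_at probe sets, and to 0.0284 to 0.269 with an array left out. The causes were not tested.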
